A study of Homo sapiens with 6 samples.

Results

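What 4 short hairpin RNAs against 2 different transcripts had in common was read from A2780 cells, an established human ovarian cancer line. The comparison sets 4 knockdown arrays, BMI1 shRNA1, BMI1 shRNA2, FAL-1 shRNA1 and FAL-1 shRNA2, against 2 control arrays, BMI1 Ctrl and FAL-1 Ctrl. These are 6 of the 6 arrays of the series, chosen by their labels and not by any measured value. The target set (BMI1 or FAL-1) was kept as a block, so that each hairpin was read against the control of its own set.

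All 6 samples received a lentivirus, the controls a control shRNA, and RNA was taken 96 hours after infection, with the virus medium replaced at 24 hours and 10% serum in the growth medium. Nothing in the labels says how the BMI1 and FAL-1 controls differ from each other. Each hairpin and each control is 1 array of a single line, and no separate cultures are described for any of them. A gene's own spread behind its p-value is therefore the spread between the hairpins of a target, not between repeats of 1 hairpin or control. For the comparison of all knockdowns with the controls, it also holds the difference between the BMI1 and FAL-1 responses. Part of this spread may be technical. The moderated test used here (limma) mixes it with a spread estimated over all genes. The p-value of a gene with even changes therefore does not measure how well its hairpins agree. Because RNA came from whole cell populations, fewer cells in a state and less RNA per cell cannot be told apart.

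BMI1 is a subunit of Polycomb repressive complex 1, which monoubiquitinates histone H2A and silences genes, the CDKN2A locus being the best known. FAL-1 (gene symbol FALEC) is a long noncoding RNA that was described as binding and stabilising the BMI1 protein and as limiting CDKN1A expression. CDKN1A encodes p21, which inhibits cyclin-dependent kinases. When these kinases are inhibited, the RB family proteins stay hypophosphorylated, E2F-driven genes of S phase are held low, and the DREAM complex with its MuvB core represses genes of S phase and mitosis, the mitotic ones through a promoter element called CHR.

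Those promoter elements can be read in RefSeq sequence. The E2F motif was searched as TTTCCCGC or TTTGGCGC and the CHR motif as TTTGAA, on both strands, in the 250 bases before each annotated start on GRCh38.p14. The 4 promoters printed here belong to genes of replication and mitosis that stood below control with all 4 hairpins, and show what such matches look like. Capitals mark the matches, which are letters found by the search and not tested binding sites.
E2F2: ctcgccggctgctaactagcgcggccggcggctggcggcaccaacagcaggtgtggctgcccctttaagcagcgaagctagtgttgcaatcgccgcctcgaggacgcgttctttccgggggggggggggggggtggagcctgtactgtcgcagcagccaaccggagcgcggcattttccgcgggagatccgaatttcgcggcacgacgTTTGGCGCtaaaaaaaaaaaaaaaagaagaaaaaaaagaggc
POLA1: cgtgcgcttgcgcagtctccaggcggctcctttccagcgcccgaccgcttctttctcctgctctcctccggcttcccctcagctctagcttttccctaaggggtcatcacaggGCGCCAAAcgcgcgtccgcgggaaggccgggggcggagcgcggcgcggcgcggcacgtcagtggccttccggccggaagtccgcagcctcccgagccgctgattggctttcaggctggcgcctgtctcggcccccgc
TOP2A: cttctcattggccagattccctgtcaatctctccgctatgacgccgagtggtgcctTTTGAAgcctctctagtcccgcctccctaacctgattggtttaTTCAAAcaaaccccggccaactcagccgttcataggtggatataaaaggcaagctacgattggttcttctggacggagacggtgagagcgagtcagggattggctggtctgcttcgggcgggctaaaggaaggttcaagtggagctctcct
NCAPG: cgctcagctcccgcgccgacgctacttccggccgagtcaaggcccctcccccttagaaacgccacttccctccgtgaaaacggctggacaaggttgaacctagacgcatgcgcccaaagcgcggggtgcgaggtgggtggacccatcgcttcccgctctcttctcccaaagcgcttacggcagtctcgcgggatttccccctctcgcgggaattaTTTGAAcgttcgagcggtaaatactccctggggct
E2F2 (chr1:23531234-23531483, minus strand) encodes an E2F transcription factor, and its match begins 42 bases before the start. POLA1 (chrX:24693668-24693917, plus strand) encodes the catalytic subunit of DNA polymerase alpha, and its match, on the other strand, begins 137 bases before the start. TOP2A (chr17:40417897-40418146, minus strand), which encodes topoisomerase II alpha, has CHR letters at 194 and at 151 bases before the start, the second of them on the other strand. NCAPG (chr4:17810729-17810978, plus strand) encodes a condensin subunit, and its CHR match begins 35 bases before the start.

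Values are log2 levels as deposited, so a difference of 1 is a doubling. Levels of 18418 genes were compared, with array medians between 7.50 and 7.61. Arrays of the same target set correlated at 0.985 to 0.995 over genes and arrays of different sets at 0.973 to 0.987, and the FAL-1 shRNA2 array was the least like the others. Of the markers of the line, VIM (12.62 to 12.82), CDH2, KRT8 and KRT18 lay above the median gene, while PAX8, at 6.56 to 6.98, lay below it on all arrays. Of 9 measured markers of blood, endothelial, fibroblast and liver cells, 3 fibroblast genes, LUM, DCN and COL1A1, were above the median gene. The summed level of the 9 ran from 60.7 to 62.9 in controls and from 60.4 to 63.9 in knockdowns. That of the 5 markers of the line ran from 48.2 to 48.3 in controls and from 47.9 to 51.4 in knockdowns, with KRT8 at 9.28 to 9.48 in controls and 9.04 to 11.07 in knockdowns, and its part in the results was not tested. BMI1 itself stood at 10.64 in its control and at 8.73 and 9.99 with its hairpins, against 10.84 in the FAL-1 control and 10.84 and 10.51 with the FAL-1 hairpins. These are 26.8%, 64.0%, 99.9% and 79.8% of the own control, so the loss of BMI1 RNA was not of 1 size among the 4 hairpins. The BMI1 probe set also reads the COMMD3-BMI1 readthrough transcript, and the level of FALEC was not analysed here.

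No gene passed an adjusted p of 0.05 for the shared response in limma's moderated test with Benjamini-Hochberg adjustment over all genes, which is 0% of 18418. At an unadjusted p under 0.05, 633 genes were higher and 774 lower, 3.44% and 4.20% of those tested. The smallest adjusted p, 0.2109, belonged to TULP3. An exact permutation of the labels within the target sets has 9 arrangements, and 0.111 is the smallest p it could reach, so it served no comparison. What follows therefore describes where genes stood on the 6 arrays, without a call for any of them.

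All 4 hairpins stood above their own control for 3133 genes (17.0%) and below it for 2603 (14.1%). By at least 1.5-fold with every hairpin, 28 genes stood above (0.152%) and 16 below (0.0869%). The 4 knockdown arrays did not overlap the 2 controls for 1661 genes in the higher direction (9.02%) and 1480 in the lower (8.04%). A gap of at least 1.5-fold between the groups was left by 12 genes (0.0652%) and by 7 genes (0.0380%). Hairpins of a target share their control array, so a low control raises both changes of that target. Of the 28 higher genes, 25 had groups that did not overlap, ANKRD1, NDST4 and SERPINI1 being the others, and of the 16 lower genes 15 did, FABP3 being the other. At the limit of 1.5-fold, 0.58 on the log2 scale, NID1 (smallest change 0.62) and CYFIP2 (0.61) lay just inside, and ANXA3 and FBXW7, both at 0.57, just outside. Among lower genes PLXNC1 and FZD2, both at -0.59, lay just inside, and CKB (-0.58) and MAGOHB (-0.57) just outside. With 1 array left out the 1.5-fold sets grew: 47 above and 32 below without BMI1 shRNA1, 46 and 36 without BMI1 shRNA2, 73 and 117 without FAL-1 shRNA1. Without FAL-1 shRNA2 they were 29 and 20. Without BMI1 Ctrl, where only the FAL-1 hairpins keep an own control, they were 106 and 117, and without FAL-1 Ctrl 99 and 166.

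**Figure D1:**
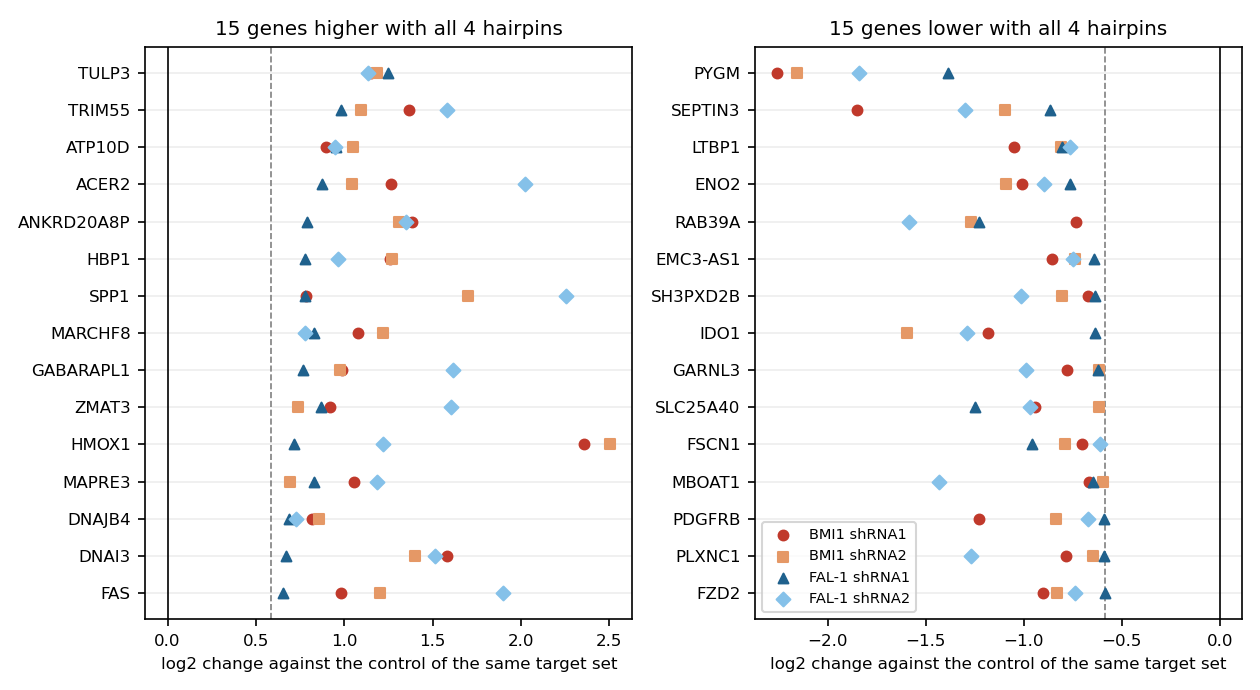
Log2 change of each hairpin against the control of its own target set (x axis) for the 15 genes per direction with the largest value of the smallest of the 4 changes, among genes whose knockdown and control arrays do not overlap. Points are single arrays and the dashed lines mark 1.5-fold; TULP3 has 4 nearly equal changes around 1.18, and PYGM lies farthest below with changes from -2.26 to -1.38.

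TULP3, a tubby family protein that carries receptors into the primary cilium, was farthest above control by the smallest of its 4 changes. It stood at 9.31 and 9.37 in the BMI1 and FAL-1 controls, at 10.46 and 10.50 with BMI1 shRNA1 and shRNA2, and at 10.61 and 10.50 with FAL-1 shRNA1 and shRNA2. All 4 knockdown arrays lay more than 1 log2 unit above both controls, which differed by far less. Its shared change was 1.18 ± 0.05 (SD of the 4 hairpins' changes, n = 4), 2.26-fold, with an adjusted p of 0.2109 in limma. ATP10D, a lipid-flipping P4-type ATPase, stood at 7.63 and 8.12 in the controls, at 8.53 and 8.68 with the BMI1 hairpins and at 9.07 with both FAL-1 hairpins. Its groups did not overlap, and the FAL-1 set lay higher as a whole, control included. The change was 0.96 ± 0.06 (SD, n = 4; limma adjusted p = 0.3262). DNAJB4, an HSP40 co-chaperone, was nearly as even at 0.77 ± 0.08, with controls at 8.55 and 8.79 and knockdowns from 9.37 to 9.52. COX7C, a small subunit of cytochrome c oxidase, had controls at 9.24 and 9.46 and knockdowns from 10.06 to 10.17, a change of 0.77 ± 0.10. SCFD1, a vesicle fusion factor between endoplasmic reticulum and Golgi, stood 0.70 ± 0.09 above control and CALCOCO1, an autophagy receptor, 0.69 ± 0.09. The 4 hairpins differed little in these genes, which are described together here for that evenness. A link to the size of the BMI1 loss was not tested.

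HBP1, an HMG-box repressor that binds RB family proteins and slows entry into S phase, stood at 7.79 in the BMI1 control and 8.53 in the FAL-1 control. It reached 9.05 and 9.06 with the BMI1 hairpins and 9.31 and 9.49 with the FAL-1 hairpins. Every knockdown array was above both controls, although the controls themselves differed more than the hairpins did. The change was 1.07 ± 0.24 (SD, n = 4), 2.10-fold, with a limma adjusted p of 0.3427. MARCHF8, a membrane-bound ubiquitin ligase that sends surface receptors to lysosomes, had controls at 8.15 and 8.22, BMI1 hairpins at 9.23 and 9.37 and FAL-1 hairpins at 9.05 and 8.99. Here the gap between the groups, 0.78, was larger than the spread within either group. TRIM55, a muscle RING finger ubiquitin ligase, stood at 6.61 and 7.50 in controls, at 7.98 and 7.70 with the BMI1 hairpins and at 8.49 and 9.09 with the FAL-1 hairpins. The lowest knockdown array lay only 0.20 above the higher control. GABARAPL1, an ATG8 family protein of autophagosomes, had controls at 8.95 and 9.17 and 3 hairpins at 9.92 to 9.93, while FAL-1 shRNA2 reached 10.78. MAPRE3, a protein of microtubule plus ends, stood 0.94 ± 0.22 above control, and DNAI3, a dynein intermediate chain, 1.29 ± 0.42.

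HMOX1, the haem oxygenase that degrades haem under oxidative stress, had the largest change among the 28 higher genes, but an uneven one. It stood at 8.30 in the BMI1 control and 10.66 and 10.80 with the BMI1 hairpins, against 8.85 in the FAL-1 control and 9.56 and 10.06 with the FAL-1 hairpins. The groups did not overlap, and both BMI1 hairpins lay above both FAL-1 hairpins. The change was 1.70 ± 0.87 (SD, n = 4), 3.25-fold, with a limma adjusted p of 0.5172. SPP1, the secreted phosphoprotein osteopontin, stood at 5.85 and 6.56 in controls, at 6.63 and 7.54 with the BMI1 hairpins and at 7.34 and 8.81 with the FAL-1 hairpins. Its groups were only 0.07 apart. CCN2, a matricellular growth factor, had controls at 9.07 and 8.59, with 10.28 and 10.13 on the BMI1 arrays and 9.22 and 11.03 on the FAL-1 arrays, so that FAL-1 shRNA2 alone spanned most of its range. NID1, a basement membrane protein, stood 0.91 ± 0.23 above control. The entry ANKRD20A8P is a multicopy ankyrin repeat pseudogene with 6 probe sets, whose changes ran from 0.21 to 1.21, so its value is uncertain.

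Farthest below control by the same measure was PYGM, the muscle form of glycogen phosphorylase. It stood at 8.68 and 8.37 in the BMI1 and FAL-1 controls, at 6.42 and 6.52 with the BMI1 hairpins and at 6.99 and 6.53 with the FAL-1 hairpins. All knockdown arrays lay below both controls by at least 1.38. The change was -1.91 ± 0.39 (SD, n = 4), 3.75-fold lower, with a limma adjusted p of 0.3262. ENO2, the neuronal form of the glycolytic enzyme enolase, was more even, with controls at 7.79 and 7.61, BMI1 hairpins at 6.78 and 6.70 and FAL-1 hairpins at 6.84 and 6.71. The 4 knockdown arrays lay closer to each other than the 2 controls did. SEPTIN3, a cytoskeletal GTPase, stood at 9.11 and 8.79 in controls and at 7.27, 8.02, 7.92 and 7.49 in the order of hairpins used above. Its change of -1.28 ± 0.42 was largest with BMI1 shRNA1. SLC25A40, a mitochondrial glutathione carrier, stood at 10.19 and 10.34 in controls and between 9.10 and 9.57 with the hairpins.

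Of the others among the 16 lower genes, LTBP1, which holds latent TGF-beta in the matrix, stood at 7.71 and 7.26 in controls, 6.67 and 6.90 with the BMI1 hairpins and 6.46 and 6.50 with the FAL-1 hairpins. PDGFRB, a receptor for platelet-derived growth factor, stood at 7.92 and 7.74 in controls, 6.69 and 7.09 with the BMI1 hairpins and 7.15 and 7.07 with the FAL-1 hairpins. FSCN1, the actin-bundling protein fascin, stood at 10.04 and 9.87 in controls and from 8.91 to 9.33 in knockdowns. No knockdown array of these 3 genes reached a control. FZD2, a Wnt receptor, differed by -0.76 ± 0.14, SH3PXD2B, a podosome scaffold, by -0.78 ± 0.17, and PLXNC1, a semaphorin receptor, by -0.82 ± 0.31. IDO1, the enzyme that starts tryptophan breakdown, had controls at 10.09 and 9.64 and knockdowns at 8.91, 8.49, 9.01 and 8.35. RAB39A, a GTPase of endosomal traffic, differed by -1.20 ± 0.35. The limma adjusted p of these genes ranged from 0.3427 for LTBP1 to 0.5286 for PLXNC1. FABP3, a fatty acid binding protein, shows what the block does: its changes of -0.81 ± 0.05 were even, but the FAL-1 set as a whole lay higher, and its knockdowns (7.80 and 7.77) lay above the BMI1 control (7.66).

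**Figure D2:**
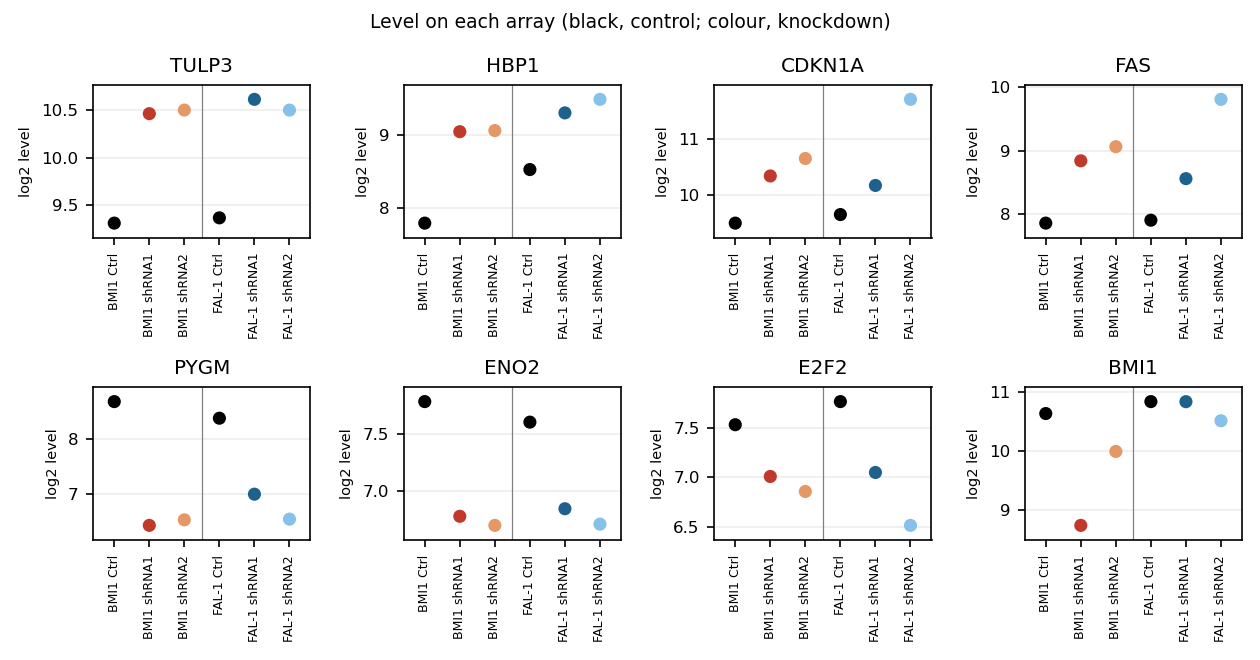
Log2 level (y axis, own range per panel) on each of the 6 arrays for 8 genes, controls in black and knockdowns in colour, with a line between the target sets. All genes but BMI1 keep the 2 controls apart from the 4 knockdowns, and BMI1 is lowest with its own hairpins at 8.73 and 9.99.

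CDKN1A stood at 9.50 and 9.65 in the BMI1 and FAL-1 controls, at 10.34 and 10.65 with the BMI1 hairpins and at 10.17 and 11.70 with the FAL-1 hairpins. All knockdown arrays lay above both controls, FAL-1 shRNA2 by far the most. The change was 1.14 ± 0.66 (SD, n = 4), 2.21-fold, and its limma adjusted p was 0.6354. FAS, a death receptor, stood at 7.86 and 7.90 in controls, 8.84 and 9.06 with the BMI1 hairpins and 8.56 and 9.81 with the FAL-1 hairpins. Its order of hairpins was that of CDKN1A, with FAL-1 shRNA1 lowest and FAL-1 shRNA2 highest. ZMAT3, an RNA-binding zinc finger protein, had controls at 8.99 and 9.04 and knockdowns at 9.91, 9.73, 9.91 and 10.64. Its groups were apart by 0.70, and the change of 1.03 ± 0.39 had an adjusted p of 0.5172 in limma. ACER2, a Golgi ceramidase, stood at 7.73 and 7.37 in controls and at 8.99, 8.77, 8.25 and 9.40 with the hairpins. MDM2, a ubiquitin ligase, was nearest to control of these, at 11.53 and 11.35 in controls and 11.77, 11.75, 11.66 and 11.98 with the hairpins. GDF15, a secreted stress cytokine, is a case where the controls differed: 9.49 and 10.76, with 10.97 and 10.95 on the BMI1 arrays and 11.24 and 12.14 on the FAL-1 arrays.

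Among 6 measured inhibitors of cyclin-dependent kinases, CDKN1A and CDKN2B stood above control with all hairpins (33.3%, against 17.0% of all genes). CDKN2B, which encodes p15, had controls at 6.92 and 6.98 and knockdowns at 7.09, 7.31, 7.04 and 7.70. CDKN2A, the best known Polycomb target, had controls at 7.96 and 8.08 and knockdowns at 8.23, 8.08, 7.98 and 8.04, so its groups overlapped. The change of CDKN2A was 0.06 ± 0.16 (SD, n = 4), and became -0.07 when the BMI1 control array was left out.

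Of 64 measured genes of the G1/S transition and replication, 45 lay below with all 4 hairpins (70.3%, against 14.1% of all genes) and 0 above. The groups did not overlap for 31, all lower (48.4%, against 8.04% of all genes). The median change was -0.54, beside 0.02 for all genes. The lists were chosen with results of these arrays known, so such counts describe them and do not test them. E2F2 stood at 7.53 and 7.76 in controls, at 7.01 and 6.86 with the BMI1 hairpins and at 7.05 and 6.51 with the FAL-1 hairpins. All of its knockdown arrays lay below both controls, and the change was -0.79 ± 0.32 (SD, n = 4; limma adjusted p = 0.5286). CCNE2, a cyclin that drives entry into S phase, had controls at 9.54 and 9.38 and knockdowns at 8.96, 8.53, 9.03 and 7.47. POLA1 had controls at 9.58 and 9.36 and knockdowns at 9.26, 8.67, 9.07 and 7.99. In both genes FAL-1 shRNA2 lay far below the rest and FAL-1 shRNA1 nearest to control. UNG, the uracil-DNA glycosylase, differed from that order, with 9.51 and 9.48 in controls, 9.20 and 9.19 with the BMI1 hairpins, and 7.63 with FAL-1 shRNA1 against 8.85 with FAL-1 shRNA2. DSCC1, a clamp loader subunit needed for sister chromatid cohesion, had changes from -1.33 to -0.25.

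Of 68 measured genes of G2/M and mitosis, 37 lay below with all 4 hairpins (54.4%, against 14.1% of all genes) and 0 above. The groups of 26 did not overlap, all lower (38.2%, against 8.04% of all genes), and the median change was -0.59. NUSAP1, a spindle microtubule protein, had controls at 10.41 and 10.29 and knockdowns at 9.94, 9.39, 9.86 and 8.80. TOP2A had controls at 11.30 and 11.27 and knockdowns at 10.61, 10.55, 10.99 and 9.63. NCAPG had controls at 10.43 and 10.55 and knockdowns at 10.18, 9.38, 10.27 and 8.62. No knockdown array of these genes overlapped a control, and FAL-1 shRNA2 was the lowest in each. The groups of KIF14 did overlap, with controls at 10.58 and 10.14 and knockdowns at 10.25, 9.71, 9.69 and 8.51. UBE2C, the ubiquitin-conjugating enzyme that works with the anaphase-promoting complex, was more even at -0.68 ± 0.31 (SD, n = 4; limma adjusted p = 0.5938).

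The hairpins differed in how far they went. Median changes of the mitosis list were -0.33 and -0.72 with BMI1 shRNA1 and shRNA2 and -0.02 and -1.30 with FAL-1 shRNA1 and shRNA2. For the replication list they were -0.38, -0.59, -0.08 and -1.06. FAL-1 shRNA1 was nearest to control and FAL-1 shRNA2 farthest in both lists. The counts of members below take a fall of any size, such as a smallest change of -0.005 for ZWINT. By 1.5-fold with every hairpin, 0 members of the replication, mitosis, recombination and histone lists lay below. Among the 37 mitotic genes below with every hairpin, FAL-1 shRNA2 had the largest change for 36 and FAL-1 shRNA1 the smallest for 31. Without FAL-1 shRNA2 the list medians were -0.31 for mitosis and -0.34 for replication, and without FAL-1 shRNA1 they were -0.86 and -0.73. Without FAL-1 Ctrl or FAL-1 shRNA1, 67 of the 68 mitotic genes lay below with all remaining hairpins that have an own control. Of all 18418 genes, 5661 did so without FAL-1 Ctrl, and from 3347 to 5661 over the arrays left out in turn. The 28 higher genes showed less of this order, with medians of 0.92, 0.96, 0.77 and 1.27 and FAL-1 shRNA2 largest in 15. Among the 16 lower genes the medians were -0.88, -0.82, -0.70 and -0.98, and BMI1 shRNA1 was most often the largest, in 6.

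**Figure D3:**
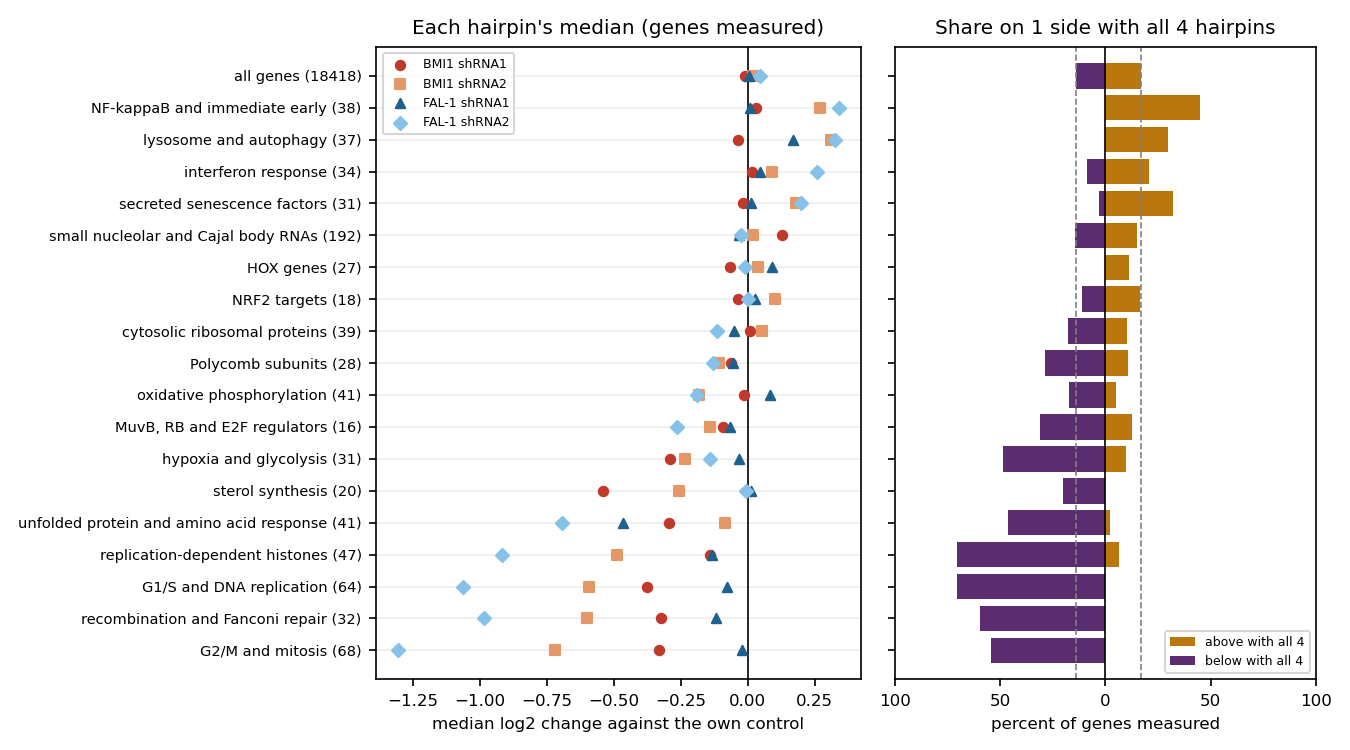
Left, median log2 change of each gene list for each hairpin against its own control (points, 1 array each; number of measured genes in brackets). Right, percent of measured genes on 1 side of the own control with all 4 hairpins, with dashed lines at the shares of all genes (17.0% above, 14.1% below); replication genes and histones reach 70.3% and 70.2% below.

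Genes of homologous recombination and the Fanconi pathway mend breaks and crosslinks met by replication forks. Of 32 measured, 19 lay below control with all 4 hairpins (59.4%, against 14.1% of all genes) and 0 above, with a median of -0.54. RMI1, a partner of the BLM helicase, had controls at 9.22 and 9.27 and knockdowns at 8.72, 8.45, 8.53 and 7.62. BLM had controls at 10.02 and 9.90 and knockdowns at 9.38, 9.22, 9.48 and 8.25. BARD1, the partner of BRCA1, differed by -0.97 ± 0.59. The groups of all 3 genes were apart. Of 47 replication-dependent histone genes, 33 lay below with all hairpins (70.2%, against 14.1% of all genes) and 3 above (6.38%, against 17.0%), with a median of -0.44. H2AC15 had controls at 9.95 and 10.06 and knockdowns at 9.50, 8.97, 9.32 and 8.17. Against the list stood H4C8, with controls at 8.97 and 9.73 and knockdowns at 9.68, 9.84, 10.27 and 10.97, and H2BC11, with a change of 0.75 ± 0.22. The groups overlapped for both. Histone genes are near copies of each other, so probe sets may read more than 1 of them. When each hairpin was read against the other set's control, 14 histone genes instead of 33 lay below.

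The regulators of these programmes were less uniform. Of 16 measured MuvB, RB and E2F family members and partners, 5 lay below with all hairpins (31.25%, against 14.1% of all genes). Above with all hairpins lay 2 (12.5%, against 17.0%), and the median was -0.12. RBL1, which encodes the RB relative p107, had controls at 9.60 and 9.27 and knockdowns at 9.20, 8.71, 9.11 and 7.63. LIN9, a MuvB subunit, differed by -0.42 ± 0.33, and TFDP1, the E2F dimer partner, by -0.62 ± 0.40. RB1 (-0.03) and E2F4 (-0.03) had no common side. HBP1, described above, was the member farthest above control.

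The promoter motifs were counted in the same lists. The CHR motif was found in 30 of the 58 mitosis genes with a RefSeq promoter (51.7%), in 13.6% of all 27305 promoters and in 10.6% of the measured genes, of which 14240 of 18418 (77.3%) matched a promoter. Among mitotic genes below with all 4 hairpins the share was 43.8% (14 of 32), and among the other members 61.5% (16 of 26). The E2F motif was found in 16 of 55 replication genes (29.1%) against 1.96% of all promoters. It was present in 26.8% of those below with all hairpins and 35.7% of the other members, of which only 73.7% had a promoter, too few for that last share to be read. The CCAAT box (CCAAT, either strand) was present in 38 of 42 histone promoters (90.5%) and 33.0% of all. Of the 28 higher genes, 24 had a promoter, with CHR in 16.7% and E2F in 4.17%. Only 10 of the 16 lower genes (62.5%) had one, so the check is void for them. Matches lay close to the start, with 25 of 37 CHR matches and 13 of 18 E2F matches in the last 100 bases before it. The absence of a match says only that these letters are not in this window.

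**Figure D4:**
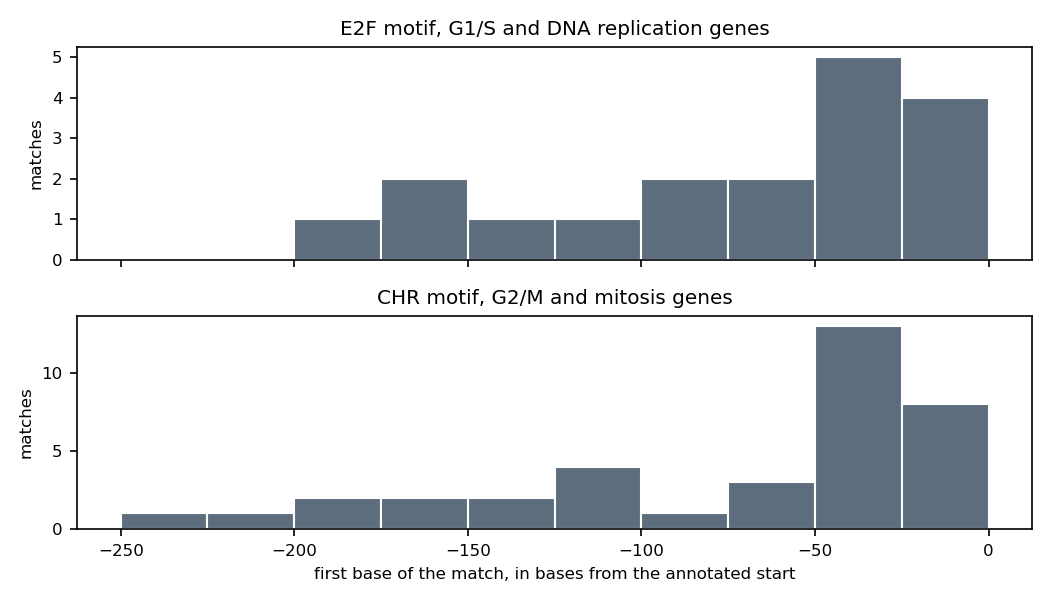
Number of motif matches (y axis) by distance of the first matched base from the annotated start, in bins of 25 bases, for E2F matches in replication genes (18 matches) and CHR matches in mitosis genes (37 matches). Most lie within 100 bases of the start, 13 and 25 of them.

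Among genes of metabolism, the hypoxia and glycolysis list had 15 of 31 members below with all hairpins (48.4%, against 14.1% of all genes). Above lay 3 (9.68%, against 17.0%), and the median was -0.19. Against the other set's control, 8 lay below. PDK1, the kinase that inhibits pyruvate dehydrogenase, had controls at 10.47 and 10.35 and knockdowns at 9.46, 9.25, 9.82 and 9.10. PFKP, a phosphofructokinase, had controls at 9.52 and 9.19 and knockdowns at 8.77, 8.65, 8.80 and 8.76. For both, and for ENO2, the groups were apart. KDM3A, a histone demethylase induced by hypoxia, stood on the other side at 0.61 ± 0.12 (SD, n = 4; limma adjusted p = 0.5172). The list of the unfolded protein and amino acid responses had 19 of 41 members below with all hairpins (46.3%, against 14.1%). Above lay 1 (2.44%, against 17.0%), and the median was -0.41. The fall was uneven, with medians of -0.295, -0.083, -0.466 and -0.693 by hairpin in the order used above. For 5 of the 41, the difference between targets had an unadjusted limma p under 0.05, beside 0.804% of all genes. PSAT1, an enzyme of serine synthesis, had controls at 11.41 and 11.48 and knockdowns at 11.08, 10.77, 10.67 and 10.55. ASNS, asparagine synthetase, had controls at 8.50 and 9.86 and knockdowns at 7.65, 8.19, 8.80 and 7.95, so its groups overlapped and the 2 controls were far apart. DNAJB9, a chaperone of the endoplasmic reticulum, stood above at 0.63 ± 0.26. The 19 below became 32 without BMI1 Ctrl and 29 without BMI1 shRNA2. Of all 18418 genes, 5095 lay below without BMI1 Ctrl, and at least 3347 with any 1 array left out.

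Of 20 genes of sterol synthesis, 4 lay below with all hairpins (20%, against 14.1% of all genes) and 0 had groups apart. The median of the list was -0.23, with medians of -0.54, -0.26, 0.01 and -0.01 by hairpin in the order used above. Of 41 genes of oxidative phosphorylation, 7 lay below (17.1%, against 14.1% of all genes) and 2 above (4.88%, against 17.0%), COX7C being the farthest above. Of 18 NRF2 targets, 3 lay above (16.7%) and 2 below (11.1%), near the shares of all genes, with a median of 0.01. HMOX1 was the only one of them above by 1.5-fold. Of 39 ribosomal protein genes, 4 lay above (10.3%) and 7 below (17.95%). Of 192 small nucleolar and Cajal body RNAs, 29 lay above (15.1%) and 28 below (14.6%), again near the shares of all genes.

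Lysosome and autophagy genes had 11 of 37 members above with all hairpins (29.7%, against 17.0% of all genes) and 0 below, with a median of 0.16. By hairpin, in the order used above, the medians were -0.037, 0.313, 0.171 and 0.327. The groups were apart for 4 of the 37 (10.8%, against 9.02%). Against the other set's control 5 were above, while 26 were without BMI1 Ctrl and 23 without BMI1 shRNA1. Of all 18418 genes, 6853 lay above without BMI1 Ctrl and 4781 without BMI1 shRNA1. PSAP, the precursor of the saposins, had controls at 10.49 and 10.67 and knockdowns at 11.02, 11.15, 10.95 and 11.50, groups apart. HEXA, a lysosomal hexosaminidase, was even at 0.34 ± 0.05, but the FAL-1 control at 9.62 lay above both BMI1 hairpins at 9.43 and 9.44. Of 38 NF-kappaB and immediate early genes, 17 lay above with all hairpins (44.7%, against 17.0% of all genes) and 0 below. Medians of this list by hairpin were 0.033, 0.269, 0.01 and 0.34. For only 4 of the 38 were the groups apart (10.5%, against 9.02% of all genes). When each hairpin was read against the other set's control, 4 of the 38 lay above. JUNB, an AP-1 subunit, differed by 0.51 ± 0.21. Of 34 interferon response genes 7 lay above (20.6%, against 17.0% of all genes), such as B2M, the light chain of MHC class I, at 0.33 ± 0.11, and 3 below (8.82%, against 14.1%), such as BST2 (tetherin), at -0.38 ± 0.13. Of 31 secreted senescence factors 10 lay above (32.3%, against 17.0%) and 1 below (3.23%, against 14.1%). The list median was 0.07, and 0.355 among members at or above the median level of all genes. By hairpin it was -0.017, 0.182, 0.011 and 0.201 over all members. MMP3, a matrix metalloprotease, had controls at 10.08 and 9.88 and knockdowns at 10.55, 11.09, 10.86 and 11.26, groups apart. TIMP1, a metalloprotease inhibitor, had controls at 12.24 and 12.72, and its groups all but met, since BMI1 shRNA1 also stood at 12.72.

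Of 28 Polycomb subunits, 8 lay below with all hairpins (28.6%, against 14.1% of all genes) and 3 above (10.7%, against 17.0%), with a median of -0.04. The groups were apart and lower for 5 of them (17.9%, against 8.04% of all genes). EZH2, the methyltransferase of Polycomb complex 2, had controls at 10.44 and 10.58 and knockdowns at 10.25, 9.85, 10.42 and 9.44. PCGF6, a paralogue of BMI1, was even at -0.25 ± 0.02 on the brighter of its 2 probe sets, with groups that overlapped. The changes of the 2 probe sets ran from -0.463 to -0.255, so its size is less certain than that SD. Of 27 HOX genes, the classical targets of Polycomb, 3 lay above (11.1%, against 17.0% of all genes) and 0 below, with a median of 0.02. HOXB8 was the farthest above by the smallest of its 4 changes, with controls at 9.61 and 9.64 and knockdowns at 9.91, 9.85, 10.07 and 9.85. Its change of 0.30 ± 0.10 had an adjusted p of 0.5952 in limma.

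Where the targets parted was tested as the BMI1 change minus the FAL-1 change. No gene passed an adjusted p of 0.05 in limma, 0% of 18418, and 148 had an unadjusted p under 0.05 (0.804%). DDIT3, the stress transcription factor CHOP, stood at 7.34 in the BMI1 control and 8.29 and 8.39 with the BMI1 hairpins, against 10.07 in the FAL-1 control and 9.12 and 9.16 with the FAL-1 hairpins. The knockdown arrays lay between the 2 controls, and the changes had opposite signs. CCNC, the cyclin of the Mediator kinase module, stood at 10.42 in the BMI1 control and 9.27 and 9.15 with its hairpins, against 10.44, 10.55 and 10.53 in the FAL-1 set. Only the BMI1 hairpins were low, and the difference was -1.31. SQLE, an enzyme of sterol synthesis, had changes of -1.42 and -1.24 with the BMI1 hairpins and -0.37 and -0.17 with the FAL-1 hairpins. The adjusted p of each of these differences was 0.9999 in limma.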

How the data were processed

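Total RNA of 6 A2780 samples was measured on 1-colour Affymetrix arrays after amplification and labelling, per the labels. The authors deposited 1 table of log2 values for 33252 probe sets and 6 arrays. RMA, which corrects background, normalizes and summarises probes, is named in the submitters' processing notes. No genome build of the array is given in the sources used here.

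Probe sets were named from the platform annotation: 19460 had 1 symbol, 1754 several and 12038 none listed. The brightest probe set stood for each of 769 genes with several, leaving 18418 genes. Those with several symbols did not enter, except that of BMI1.

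The shared response was fitted in limma 3.58.1 (R 4.3.3) with the target set as a block and 3 residual degrees of freedom. The difference between targets used 4 group means. Tests were two-sided with Benjamini-Hochberg adjustment over all genes at 0.05, and the fit was tested on simulated data. Their number, 6 arrays, limits the precision. Lists and motifs were counted without a test. The comparison and the lists were chosen with earlier results of these data known, and 16 genes are in more than 1 list.

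Named were up to 15 genes per direction by the smallest of the 4 hairpin changes among genes with groups apart. Added were up to 5 members per list on the side of its median and 3 on the other, 8 for the difference, 2 on each side of 1.5-fold per direction, BMI1, CDKN1A, MDM2, CDKN2A and CDKN2B. FALEC was also on the rule and was not analysed here, and 1 other gene and 1 list are not reported here. Other members of the 28 and 16 gene sets, the marker genes, RB1 and E2F4 were named after their values were seen. Alternatives were other normalizations, controls, filters, folds, probe set rules, variance priors, a replicate block and leaving out each array. RefSeq promoters (GRCh38.p14) were matched by symbol. Python 3.11.15 and matplotlib 3.10.9 were used.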

Additional observations from a re-analysis of the deposited data

Results flagged for a closer look

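Of 72 sets of 4 hairpin changes or list medians, 4 held 1 value far from the other 3. No chance rate can be set beside this count. Hairpins of a target share a control, and most of the genes were picked by these same changes. ANKRD20A8P stood 0.79 above its control with FAL-1 shRNA1, far less than with the other hairpins. ADGRG6, an adhesion receptor, stood 2.12 above with FAL-1 shRNA2, far more than with the others. MBOAT1, a lysophospholipid acyltransferase, had a change of -1.43 with FAL-1 shRNA2, and LTBP1 one of -1.05 with BMI1 shRNA1, each the largest of its 4. In 2 lists the medians lay on opposite sides with the targets, a difference that was not tested: the BMI1 minus FAL-1 change had a median of 0.093 for ribosomal proteins and 0.123 for small nucleolar and Cajal body RNAs.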

How the results depend on the processing

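No gene passed an adjusted p of 0.05 for the shared response or the difference between targets under any alternative, and with the target set as a block 0 passed 0.1 for the shared response, where 1407 had an unadjusted p under 0.05. With pooled controls and no block, TULP3 had an adjusted p of 0.0787 in limma. Of 2268 values for 143 named genes, 2267 kept their direction and their side of the threshold, and CDKN2A turned to -0.069 without BMI1 Ctrl (range -0.069 to 0.19 without each array in turn). All of these genes but CDKN2A were named with their 4 hairpin changes on 1 side, so leaving out an array could not turn them. With no gene past the threshold, the side of it was fixed too, so this count is no sign of stability. At 1.3-fold in place of 1.5-fold, 99 genes stood above and 112 below with all 4 hairpins, and 46 and 50 had groups that far apart; at 2-fold each of these counts was 1. Against the other target set's control the unadjusted counts were 336 higher and 509 lower, and 17 genes stood above by 1.5-fold. Members on the side of the list were then 14 histones, 8 hypoxia, 5 lysosome and 4 NF-kappaB genes. The shares of all genes against that control are not given here. Among genes at or above the median level the unadjusted counts were 349 and 398, 29 for the difference. All genes below that level were left out, so these counts and the next ones cannot be set beside those over 18418 genes. There 1305 genes stood above with all hairpins, 9 below by 1.5-fold, 655 had higher groups apart and 4 lower groups apart by 1.5-fold. List medians there were 0.279 for interferon, 0.355 for secreted senescence factors, 0.216 for markers of other cells and -0.035 for all genes, and 10 NF-kappaB genes stood above. For the 16 lower genes the GC box (GGGCGG) check is void, since only 10 had a promoter. Its share went from 60.0% to 100% where groups had to be apart by 1.5-fold, on fewer genes still.

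Hairpin numbers are only names here. With the hairpin number as a replicate block, which leaves every change as it was, the unadjusted counts were 1003 higher and 1388 lower, and 286 for the difference.

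With 1 array left out at a time, the lowest and highest values were as follows. Unadjusted counts ran from 189 to 929 higher and from 277 to 1452 lower, and from 172 to 567 for the difference. Genes with all hairpins above numbered 3716 to 6853 and below 3347 to 5661, by 1.5-fold 29 to 106 and 20 to 166. Groups apart numbered 1944 to 3941 higher and 1874 to 3208 lower, by 1.5-fold 13 to 64 and 11 to 55. Members on the side of the list numbered 37 to 67 for mitosis, 19 to 32 for the unfolded protein list and 12 to 26 for lysosomes. List medians ran from -0.095 to 0.013 for ribosomal proteins and from 0.085 to 0.231 for kinase inhibitors.

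Quantile normalization, cyclic loess, the mean of a gene's probe sets and the other variance priors moved no count by over 1.5 times. The median changes were equal with pooled controls, the other control or 4 group means, because the design is balanced, so these say nothing about stability. The limits are 1 array per hairpin, 1 control per target, and controls that differ between the sets. Counts with all hairpins grow when an array is left out, since fewer must lie on 1 side.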
